A study of Mus musculus with 18 samples.

Results

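The collagen genes were taken as every reference gene of the expression table whose symbol has the form Col, number, a, number. There were 43 of them among 28934 entries with a reference gene. They fall into 11 fibrillar collagens, 8 basement membrane collagens, 2 epithelial anchoring collagens (Col17a1 and Col7a1), 6 beaded filament collagens, 9 fibril-associated collagens (FACIT) and 7 others. RNA was sequenced from the forestomach of 18 male C57BL/6 mice in 4 groups to compare the response to the esophageal carcinogen NMBA (N-nitrosomethylbenzylamine) with and without the chemokine receptor CCR2. The controls, 3 wild-type (WT) and 3 CCR2-/- mice, received 1% carboxymethyl cellulose by gavage. Gavage with NMBA lasted 5 weeks, with 2 doses of 0.25 mg/kg each week, in 6 WT and 6 CCR2-/- mice, and forestomachs were removed when week 25 ended. The mice entered the study at 4 to 8 weeks of age.

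CCR2-/- mice carry the germline Ccr2 tm1Ifc allele, so the receptor is lost in every cell type and not in monocytes alone. The paper calls the sequenced tissue tumor, while the labels name forestomach, and how much lesion each NMBA sample held is not given in the sources used here. The labels do not say which mice shared a litter or cage, so the p-values below measure the spread between the samples. Within each genotype the NMBA libraries carry 2 code letters, with replicates 1 to 3 under one and replicates 4 to 6 under the other. A difference between these letters cannot be told apart from any other difference between the mice that carry them.

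Collagens are built of chains that wind into a helix. Fibrillar collagens build the load-bearing fibrils of connective tissue and are made chiefly by fibroblasts and smooth muscle cells. Type IV collagen forms the sheet-like network of basement membranes, and type VI collagen forms beaded filaments around cells. In a stratified squamous epithelium such as the forestomach, type XVII collagen is a transmembrane protein of the hemidesmosomes of basal keratinocytes, and type VII collagen forms the anchoring fibrils that tie the basement membrane to the stroma below.

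Expression is given as FPKM (read fragments relative to transcript length and to the fragments mapped in a library), as deposited. The table holds no read counts. The spacing of the values under 0.1 FPKM puts the deepest library 1.38-fold above the shallowest. Ccr2 itself measured 1.3 to 3.43 FPKM in the 9 WT libraries and 0 to 0.0798 FPKM in the 9 CCR2-/- libraries. The gene for pepsinogen C, a product of the glandular stomach, took 9.23% of all FPKM in WT control replicate 3 and 9.51% in CCR2-/- NMBA replicate 4, against 0.412 to 4.52% in the other 16 libraries. WT NMBA replicate 6 held the highest Tff1, Tff2, Gkn1 and Gkn2, secreted products of the gastric surface, with Tff1 at 14643 FPKM against 1322 to 11776 FPKM elsewhere. Its 9 glandular stomach markers summed to 46350 FPKM, beside 49790 in WT control replicate 3, 63880 in CCR2-/- NMBA replicate 4 and 4437 to 42390 in the other 15. Keratin 13 and keratin 4, which mark the squamous epithelium, took 1.23 to 1.67% and 0.449 to 1.46%.

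Collagen transcripts were led by stromal fibrillar chains, with 1 epithelial collagen among the highest. Averaged over the 18 libraries, Col3a1 was the highest at 84.41 FPKM, followed by Col1a1 at 59.67, Col6a1 at 58.95, Col17a1 at 53.38, Col1a2 at 46.06, Col4a2 at 30.77, Col4a1 at 29.9 and Col6a2 at 24.25 FPKM. These 8 genes held 73.0% of all collagen FPKM. Neighbours in this order often differed by no more than the spread between libraries. The group SD reached 38.65 FPKM for Col3a1 and 11.7 FPKM for Col4a1, so the order is not firm. All collagens together took between 0.0455 and 0.213% of the FPKM of a library.

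At the other end, 13 collagens did not reach 0.5 FPKM in 3 libraries and were not tested. They were Col2a1, Col9a1, Col9a3, Col10a1, Col11a1 and Col11a2, all collagens of cartilage, and Col4a3 and Col4a4, type IV chains known from the kidney glomerulus. The others were Col6a6, Col22a1, Col24a1, Col25a1 and Col26a1. None of the 13 averaged above 0.2663 FPKM, the value of Col11a2. The remaining 30 collagens passed the filter of at least 0.5 FPKM in 3 or more libraries, and they comprise 7 fibrillar, 6 basement membrane, 2 epithelial anchoring, 5 beaded filament, 6 FACIT and 4 other collagens. Col9a2 passed on 6 libraries, of which 3 were the WT controls, 1 was WT under NMBA and 2 were CCR2-/- under NMBA. The entries of 2 collagens join a second gene symbol, Col3a1 with AC125167.1 and Col20a1 with 9230112E08Rik, and their reads are not separated.

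**Figure D1:**
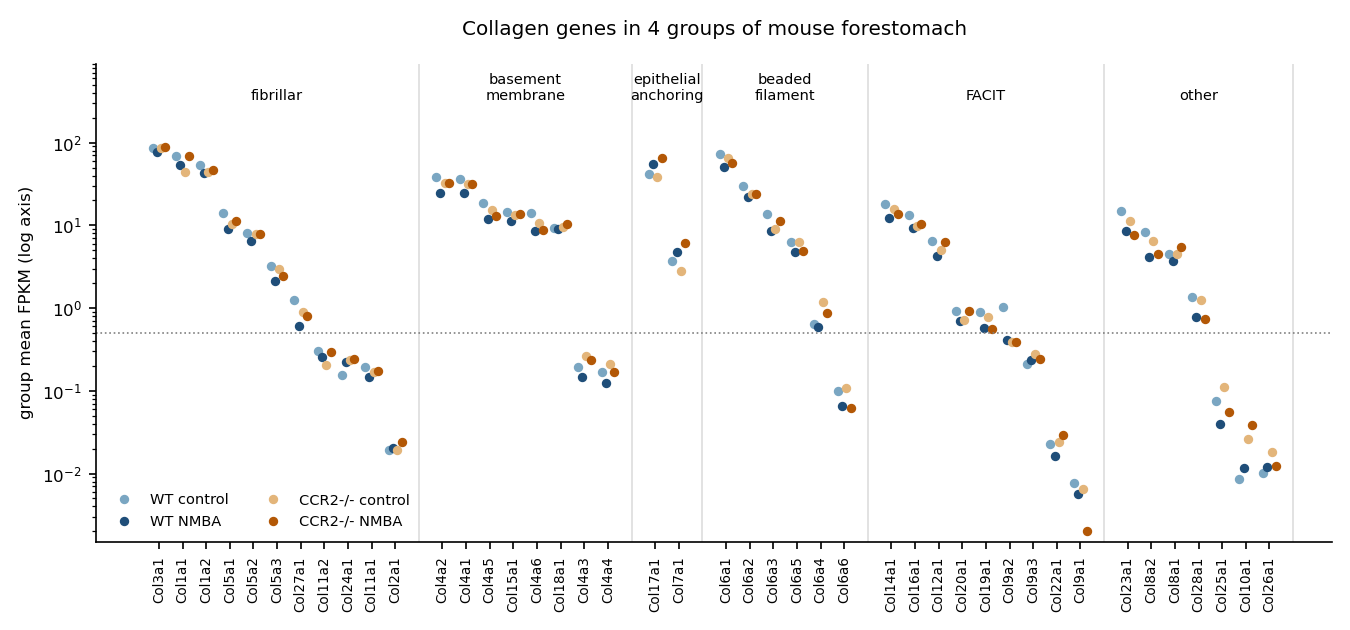
Group mean FPKM (log axis) of the 43 collagen genes in 4 groups of forestomach (WT control n = 3, WT NMBA n = 6, CCR2-/- control n = 3, CCR2-/- NMBA n = 6), ordered by class and level, with the dotted line at 0.5 FPKM. Col3a1, Col4a2, Col17a1 and Col6a1 stand at the top of their classes, and Col17a1 and Col7a1 have their higher means in the NMBA groups.

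No collagen gene passed an adjusted p of 0.05 in any comparison (limma on log2(FPKM + 1), Benjamini-Hochberg over all 14765 genes tested, two-sided). In WT mice 0.0880% of all genes passed for NMBA against control, each of them higher. The shares were 0.0203% for NMBA in CCR2-/- mice, again all higher, and 0.00677% for CCR2-/- against WT in controls. For CCR2-/- against WT under NMBA 0.0474% passed, 0.0203% higher and 0.0271% lower, and for the difference between the NMBA responses of the genotypes no gene passed. Few genes of any kind were therefore called.

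An unadjusted p under 0.05 was reached by more collagens. With NMBA in WT mice 0 collagens were higher (5.45% of all genes) and 6 were lower (7.69% of all genes). With NMBA in CCR2-/- mice 2 were higher (5.20% of all genes) and 0 were lower (6.18%). Between CCR2-/- and WT mice under NMBA 1 was higher (2.40%) and 0 lower (3.90%), and in controls 0 were higher (2.81%) and 1 lower (2.30%). The NMBA response differed at this level for 2 collagens, Col9a2 and Col16a1, both with the higher value in CCR2-/- mice (1.98% of all genes), and for 0 with the lower value (2.58%). The 6 collagens lower with NMBA in WT mice were Col4a6, Col8a2, Col9a2, Col16a1, Col23a1 and Col27a1.

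Col17a1 and Col7a1 were the collagens with the largest NMBA log2 fold changes upward in CCR2-/- mice, and they were the only tested collagens with positive values in WT mice. Col17a1 (ENSMUSG00000025064) lies on the minus strand of chromosome 19 of GRCm38 from 47646344 to 47692094. It encodes the hemidesmosomal collagen also known as the bullous pemphigoid antigen BP180. It measured 52.2, 31.7 and 41.1 FPKM in the WT controls and 35.7, 37.1 and 42.0 FPKM in the CCR2-/- controls. Under NMBA it ranged from 33.7 through a median of 56.8 to 80.7 FPKM in WT mice, which overlaps the WT controls. The CCR2-/- libraries under NMBA ranged from 47.3 through a median of 65.3 to 87.7 FPKM, with every library above every CCR2-/- control.

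The log2 fold change of Col17a1 with NMBA was 0.71 in CCR2-/- mice (standard error, SE, 0.26, adjusted p = 0.360 from limma) and 0.36 in WT mice (SE 0.26, adjusted p = 0.591 from limma). The difference between these responses was 0.35 with a 95% interval from -0.41 to 1.11 (adjusted p = 0.893 from limma), so the genotypes were not shown to differ.

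Col7a1 (ENSMUSG00000025650, chromosome 9, plus strand, 108953586 to 108984875), the gene of the anchoring fibrils, had the same order of groups at a lower level. It measured 4.39, 2.81 and 3.93 FPKM in the WT controls and 2.70, 2.45 and 3.33 FPKM in the CCR2-/- controls. Under NMBA the WT libraries ran from 2.77 through a median of 5.28 to 6.13 FPKM. The CCR2-/- libraries ran from 3.77 through a median of 6.01 to 9.28 FPKM under NMBA, again all above the CCR2-/- controls. The log2 fold change with NMBA was 0.85 in CCR2-/- mice (SE 0.23, adjusted p = 0.249 from limma) and 0.28 in WT mice (SE 0.23, adjusted p = 0.659 from limma). The difference between the responses was 0.57 with a 95% interval from -0.10 to 1.25 (adjusted p = 0.893 from limma).

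These were the 2 collagens whose CCR2-/- groups did not overlap, a share of the 30 to be read against the 3.41% of all tested genes that were higher in every NMBA library than in every control in CCR2-/- mice. With NMBA replicates 1 to 3 alone both genes passed in CCR2-/- mice, Col17a1 at a log2 fold change of 0.985 (adjusted p = 0.0346 from limma) and Col7a1 at 1.12 (adjusted p = 0.0185 from limma). In that setting 0.941% of all genes were called higher, and with replicates 4 to 6 alone neither gene passed and none was called higher.

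Both genes had lower means in NMBA replicates 4 to 6 than in replicates 1 to 3 in each genotype. In WT mice Col17a1 measured 69.4, 80.7 and 55.8 FPKM in NMBA replicates 1 to 3 and 35.3, 57.8 and 33.7 FPKM in replicates 4 to 6, so the sets overlap only through replicates 3 and 5. In CCR2-/- mice it measured 73.9, 69.2 and 87.7 FPKM in replicates 1 to 3 and 49.0, 47.3 and 61.3 FPKM in replicates 4 to 6, which do not overlap. The log2 difference of replicates 4 to 6 from replicates 1 to 3 was -0.71 in WT mice (SE 0.21, adjusted p = 0.457 from limma) and -0.54 in CCR2-/- mice (SE 0.21, adjusted p = 0.425 from limma). For Col7a1 it was -0.48 (adjusted p = 0.562 from limma) and -0.53 (adjusted p = 0.427 from limma). No gene of the 14765 passed in this comparison in either genotype. At an unadjusted p under 0.05, Col17a1 and Col7a1 were the 2 collagens lower in WT mice, where 5.73% of all genes were, and 0 were higher (2.98%). The counts in CCR2-/- mice were 2 lower, the same pair, against 5.53% of all genes, and 4 higher, namely Col4a1, Col4a2, Col8a2 and Col9a2, against 4.99%.

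Some other markers also divided by code letter, and others did not. Krt4, a keratin of the upper squamous layers, measured 2009 to 2733 FPKM in WT NMBA replicates 1 to 3 and 2890 to 4069 FPKM in replicates 4 to 6. In CCR2-/- mice it measured 1724 to 2199 and 3730 to 4410 FPKM, and in FPKM neither genotype overlapped. As a share of all FPKM, Krt4 overlapped in WT mice, at 0.511 to 0.706% and 0.588 to 1.03%. The shares in CCR2-/- mice were 0.449 to 0.584% and 0.914 to 1.05%, without overlap. The summed FPKM of the 9 glandular stomach markers was 8513 to 11180 and 24170 to 46350 in WT mice, and 5577 to 19630 and 7734 to 63880 in CCR2-/- mice, where the sets overlap. Krt13, which like Krt4 marks the squamous epithelium, overlapped. It took 1.34 to 1.53% and 1.26 to 1.41% of all FPKM in WT mice, and 1.23 to 1.53% and 1.26 to 1.67% in CCR2-/- mice. The summed FPKM of the 3 basal markers given below was 548.4 to 835.2 and 383.5 to 535.9 in WT mice, without overlap. In CCR2-/- mice it was 527.9 to 819.9 and 430.3 to 697.4, with overlap. The part of these differences in Col17a1 and Col7a1 was not tested.

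Markers of basal keratinocytes went different ways. Krt5, the basal keratin, measured 213.6 to 240.2 FPKM in the 6 controls and 326.4 to 781.4 FPKM in the 12 NMBA libraries, without overlap. Krt15, another basal keratin, measured 34.1 to 58.3 FPKM in controls and 17.8 to 48.1 FPKM under NMBA, with 9 of the 12 NMBA libraries below every control. Trp63, the transcription factor p63 of basal cells, overlapped at 22.3 to 37.3 and 24.0 to 45.9 FPKM. The summed FPKM of these 3 markers with an entry, of 4 listed, was 279.8 to 318.0 in controls and 383.5 to 835.2 under NMBA, and it follows Krt5. The part of these markers in the values of Col17a1 and Col7a1 was not tested. In bulk tissue a larger share of basal cells and more transcript per basal cell cannot be told apart.

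The promoters of Col17a1 and Col7a1 are shown because these genes had the largest upward fold changes with NMBA in CCR2-/- mice, and that of Col3a1 because it was the highest stromal collagen. The letters are the 150 bases before the gene's start in RefSeq (GRCm38.p6), on the gene's strand, with capitals at the motifs searched. These were CCAAT, which reads ATTGG on the other strand, TATAAA, which there reads TTTATA, and GGGCGG, which there reads CCGCCC.
Col17a1 (chr19:47692043-47692192, minus strand): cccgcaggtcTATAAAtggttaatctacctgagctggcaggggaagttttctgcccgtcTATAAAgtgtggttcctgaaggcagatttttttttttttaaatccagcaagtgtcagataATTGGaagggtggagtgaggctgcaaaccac
Col7a1 (chr9:108953436-108953585, plus strand): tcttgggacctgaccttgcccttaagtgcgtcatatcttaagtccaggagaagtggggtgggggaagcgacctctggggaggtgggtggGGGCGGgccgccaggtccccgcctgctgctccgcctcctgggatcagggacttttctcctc
Col3a1 (chr1:45311388-45311537, plus strand): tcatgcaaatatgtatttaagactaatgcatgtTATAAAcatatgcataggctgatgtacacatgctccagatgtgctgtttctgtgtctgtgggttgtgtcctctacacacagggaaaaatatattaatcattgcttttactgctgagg
The motif search covered both strands, and the motifs did not overlap in these windows. Col17a1 held TATAAA at 140 and 91 bases and ATTGG at 31 bases before its RefSeq start, which lies inside the gene model of the authors' table. Col7a1 held GGGCGG at 61 bases and Col3a1 held TATAAA at 117 bases before its start. The 34 collagen genes with a promoter entry have 37 windows. Of these windows 19 held GGGCGG, 8 held CCAAT and 4 held TATAAA, counting either strand. Among all 32851 promoter windows the shares were 28.6%, 24.5% and 7.57%. A match of letters describes the window and shows no binding.

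The fibrillar collagens overlapped between the groups in each comparison. Col1a1 (ENSMUSG00000001506, chromosome 11, 94936224 to 94953042), which encodes the major chain of type I collagen, measured 75.5, 48.0 and 84.8 FPKM in WT controls and 53.5, 38.0 and 41.6 FPKM in CCR2-/- controls. Under NMBA it ran from 21.9 through a median of 61.6 to 81.7 FPKM in WT mice and from 39.9 through a median of 56.7 to 126.4 FPKM in CCR2-/- mice. Each NMBA group thus overlaps the controls of its genotype. The log2 fold change with NMBA was -0.46 in WT mice (SE 0.40, adjusted p = 0.687 from limma) and 0.49 in CCR2-/- mice (SE 0.40, adjusted p = 0.625 from limma). The difference of responses, 0.95, had a 95% interval from -0.24 to 2.14 (adjusted p = 0.893 from limma).

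Col1a2 (ENSMUSG00000029661, chromosome 6, 4504814 to 4541544) encodes the partner chain of type I collagen. It measured 51.5, 43.5 and 65.7 FPKM in WT controls and 19.6 to 61.5 FPKM (median 47.3) in WT mice under NMBA, with a log2 fold change of -0.41 (adjusted p = 0.672 from limma). It measured 55.8, 36.5 and 41.6 FPKM in CCR2-/- controls and 21.7 to 74.0 FPKM (median 46.8) in CCR2-/- mice under NMBA. Col3a1 (ENSMUSG00000026043, chromosome 1, 45311538 to 45349706), the type III chain of extensible tissues, measured 80.8, 69.7 and 111.3 FPKM in WT controls and 107.1, 74.2 and 78.1 FPKM in CCR2-/- controls. Under NMBA it ran from 36.7 through a median of 80.9 to 112.9 FPKM in WT mice and from 41.0 through a median of 83.0 to 151.8 FPKM in CCR2-/- mice. The group medians of Col3a1 lay between 78.1 and 83.0 FPKM, and its log2 fold changes with NMBA were -0.26 in WT mice (adjusted p = 0.834 from limma) and -0.06 in CCR2-/- mice (adjusted p = 0.952 from limma). Over the 7 fibrillar collagens tested, the log2 fold change with NMBA ran from -0.64 to -0.26 in WT mice and from -0.23 to 0.49 in CCR2-/- mice.

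Col27a1 (ENSMUSG00000045672, chromosome 4, 63214004 to 63334991), a fibrillar collagen of low level named after its values were seen, was the 1 fibrillar collagen at an unadjusted p under 0.05 in WT mice. It measured 1.64, 0.774 and 1.31 FPKM in WT controls and 0.236 to 0.970 FPKM (median 0.581) in WT mice under NMBA, with overlap. Its log2 fold change was -0.47 (SE 0.16, unadjusted p = 0.00965, adjusted p = 0.248 from limma). It measured 0.958, 0.818 and 0.897 FPKM in CCR2-/- controls and 0.400 to 1.39 FPKM in CCR2-/- mice under NMBA.

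**Figure D2:**
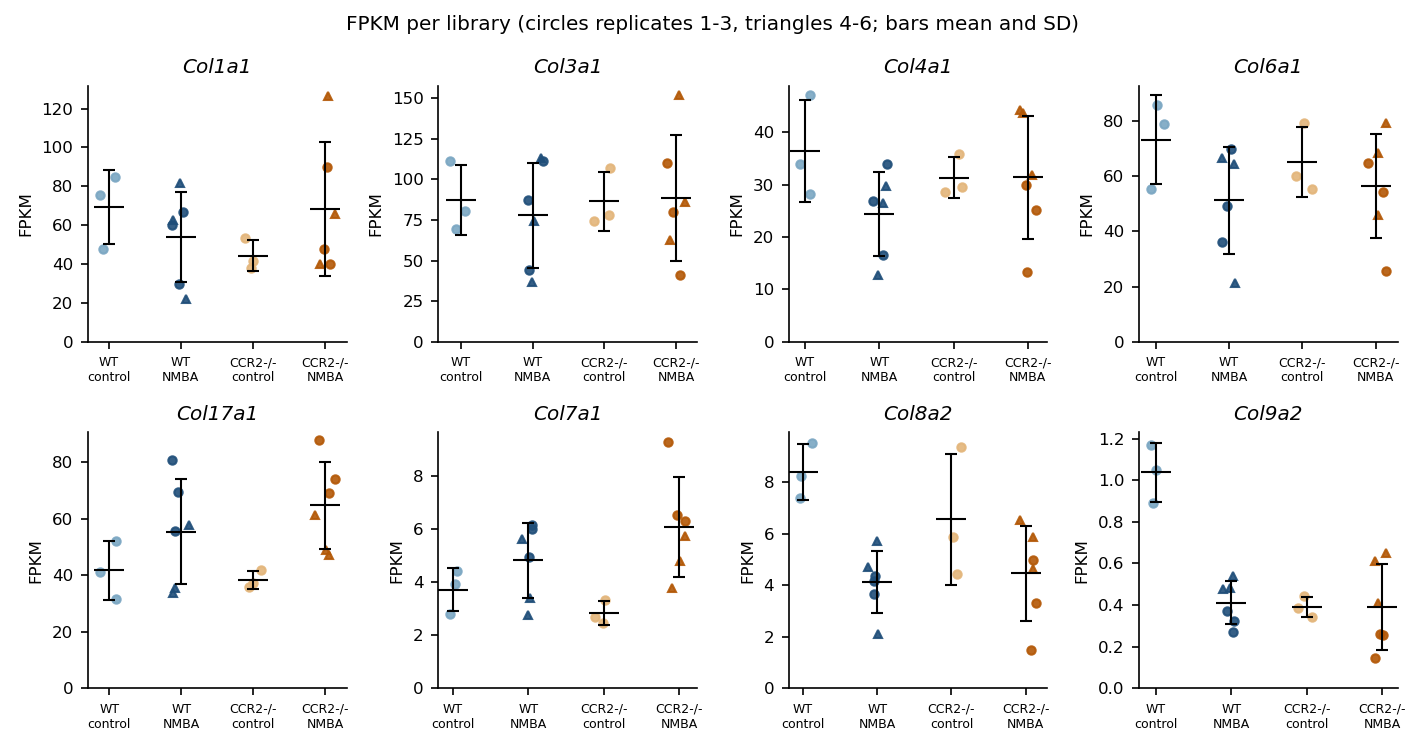
FPKM of 8 collagen genes in each library, with circles for replicates 1 to 3, triangles for replicates 4 to 6, and bars for the mean and SD of each group (n = 3, 6, 3 and 6). Col17a1 and Col7a1 under NMBA in CCR2-/- mice lie above all CCR2-/- controls, Col8a2 and Col9a2 under NMBA in WT mice lie below all WT controls, and the 4 panels of the upper row overlap.

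The 6 basement membrane collagens, like the 7 fibrillar ones, all had negative log2 fold changes with NMBA in WT mice, none of them called, and no member was without overlap. Col4a1 (ENSMUSG00000031502, chromosome 8, 11198423 to 11312826) measured 34.0, 28.1 and 47.1 FPKM in WT controls and 12.7 to 33.9 FPKM (median 26.7) in WT mice under NMBA. It measured 35.8, 29.5 and 28.6 FPKM in CCR2-/- controls and 13.4 to 44.3 FPKM (median 30.9) in CCR2-/- mice under NMBA. Col4a2 (ENSMUSG00000031503, chromosome 8, 11312805 to 11449287), which is transcribed away from Col4a1 and supplies the other chain of the common type IV trimer, measured 37.2, 27.0 and 50.9 FPKM in WT controls and 11.3 to 34.2 FPKM (median 25.6) under NMBA. Its CCR2-/- libraries measured 34.2, 28.2 and 34.9 FPKM in controls and 13.3 to 46.7 FPKM (median 33.7) under NMBA.

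The log2 fold change with NMBA in WT mice was -0.60 for Col4a1 (adjusted p = 0.451 from limma) and -0.68 for Col4a2 (adjusted p = 0.437 from limma). It was -0.08 for Col4a1 in CCR2-/- mice (adjusted p = 0.925 from limma). Col4a6 (ENSMUSG00000031273, chromosome X, 141165403 to 141474076), a type IV chain of smooth muscle and some epithelial basement membranes, measured 17.6, 8.91 and 15.6 FPKM in WT controls and 3.11 to 13.7 FPKM (median 7.60) in WT mice under NMBA. Its log2 fold change was -0.75 (SE 0.35, unadjusted p = 0.0482, adjusted p = 0.375 from limma). In the CCR2-/- groups it measured 11.7, 10.2 and 10.2 FPKM and 4.02 to 12.4 FPKM (median 8.52). Over the 6 basement membrane collagens tested the log2 fold change ran from -0.75 to -0.06 in WT mice and from -0.32 to 0.08 in CCR2-/- mice.

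In CCR2-/- mice Col4a1 differed between the code letters in the direction opposite to Col17a1. It measured 25.2, 29.9 and 13.4 FPKM in NMBA replicates 1 to 3 and 44.3, 31.9 and 43.8 FPKM in replicates 4 to 6, a log2 difference of 0.84 (SE 0.33, adjusted p = 0.431 from limma). For Col4a2 the difference was 0.83 (adjusted p = 0.465 from limma), and the sets overlap, with 36.8 FPKM in replicate 2 and 30.6 FPKM in replicate 5. Without replicate 3 the differences were 0.51 for Col4a1 and 0.48 for Col4a2. Col4a6 and Col4a5 had 0.56 and 0.48, at an unadjusted p of 0.179 and 0.268 (limma). In WT mice it was -0.19 for Col4a1 (adjusted p = 0.874 from limma). Without CCR2-/- NMBA replicate 3, the number of collagens at an unadjusted p under 0.05 in this comparison of CCR2-/- mice was 1.

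The classes can be set side by side as shares of all collagen FPKM in a library, given without a test. Epithelial anchoring collagens took 7.53 ± 1.3% (SD, n = 3) in WT controls, 13.5 ± 4.13% (SD, n = 6) in WT mice under NMBA, 8.10 ± 1.38% (SD, n = 3) in CCR2-/- controls and 14.2 ± 7.58% (SD, n = 6) in CCR2-/- mice under NMBA. The WT libraries overlap at 6.70%, the lowest NMBA value, and in CCR2-/- mice the lowest NMBA value of 8.29% lies below the highest control at 9.06%. Fibrillar collagens took 39.0 ± 2.17, 40.1 ± 5.60, 38.3 ± 2.32 and 39.5 ± 5.26% in the same order of groups. Basement membrane collagens took 21.5 ± 1.32, 18.9 ± 1.94, 22.1 ± 1.46 and 19.7 ± 3.86%. Beaded filament collagens took 20.3 ± 0.662% in WT controls, 20.5 ± 0.453% in CCR2-/- controls, 17.4 ± 1.81% in CCR2-/- mice under NMBA and 15.1 to 20.5% (median 18.4%) in WT mice under NMBA. A share of one class is bound to the shares of the others, so a higher epithelial share lowers the rest.

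The log2 fold changes of the 5 beaded filament collagens tested ran from -0.67 to -0.05 with NMBA in WT mice and from -0.35 to 0.23 in CCR2-/- mice. Col6a3 (ENSMUSG00000048126, chromosome 1, 90765923 to 90843971), a long chain of type VI collagen, measured 16.1, 8.93 and 15.8 FPKM in WT controls and 3.34 to 11.9 FPKM (median 9.59) in WT mice under NMBA. It measured 10.01, 7.97 and 8.91 FPKM in CCR2-/- controls and 6.40 to 17.2 FPKM (median 11.1) in CCR2-/- mice under NMBA. Its log2 fold change with NMBA in WT mice was -0.67 (adjusted p = 0.396 from limma), and that of CCR2-/- against WT under NMBA was 0.39 (adjusted p = 0.735 from limma). Col6a4 was near the filter, with 0.631, 0.367 and 0.949 FPKM in WT controls, 0.303 to 1.11 FPKM in WT mice under NMBA, 0.744, 1.51 and 1.32 FPKM in CCR2-/- controls and 0.322 to 1.73 FPKM in CCR2-/- mice under NMBA.

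The collagens with the largest downward log2 fold changes in WT mice belong to minor types. Col8a2 (ENSMUSG00000056174, chromosome 4, 126286793 to 126314330), a short-chain network collagen known from Descemet's membrane of the cornea, measured 8.25, 7.39 and 9.52 FPKM in WT controls. In WT mice under NMBA it ran from 2.12 through a median of 4.25 to 5.72 FPKM, with every library below every WT control. The log2 fold change was -0.91 (SE 0.30, unadjusted p = 0.00718, adjusted p = 0.235 from limma). The CCR2-/- libraries measured 9.36, 5.87 and 4.44 FPKM in controls and 1.47 to 6.54 FPKM (median 4.81) under NMBA, a log2 fold change of -0.50 (adjusted p = 0.515 from limma) with overlap.

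Col23a1 (ENSMUSG00000063564, chromosome 11, 51289920 to 51583918), a transmembrane collagen, measured 16.7, 13.5 and 14.4 FPKM in WT controls and 5.27 to 11.6 FPKM (median 8.46) in WT mice under NMBA, again without overlap. The log2 fold change was -0.79 (SE 0.28, unadjusted p = 0.0115, adjusted p = 0.259 from limma). The CCR2-/- libraries measured 14.4, 8.84 and 10.7 FPKM in controls and 4.01 to 13.3 FPKM (median 6.72) under NMBA, a log2 fold change of -0.57 (adjusted p = 0.449 from limma). Col28a1, a low-level collagen known from peripheral nerve in mice, measured 1.63, 0.735 and 1.75 FPKM in WT controls and 0.255 to 1.37 FPKM in WT mice under NMBA. The CCR2-/- libraries measured 1.75, 0.841 and 1.12 FPKM in controls and 0.175 to 1.19 FPKM under NMBA, with a log2 fold change of -0.37 (adjusted p = 0.510 from limma).

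Col9a2 (ENSMUSG00000028626, chromosome 4, 121039385 to 121055322), a FACIT chain best known from cartilage, set the WT controls apart from all other groups at a level close to the filter. It measured 1.05, 0.892 and 1.17 FPKM in WT controls and 0.442, 0.345 and 0.385 FPKM in CCR2-/- controls. Under NMBA it ran from 0.272 to 0.538 FPKM (median 0.425) in WT mice and from 0.146 to 0.652 FPKM (median 0.336) in CCR2-/- mice. Its log2 fold change with NMBA in WT mice was -0.53 (SE 0.11, adjusted p = 0.0882 from limma), the smallest adjusted p of any collagen in that comparison. In controls the log2 fold change of CCR2-/- against WT was -0.55 (adjusted p = 0.474 from limma). The NMBA responses of the genotypes differed by 0.52 (unadjusted p = 0.00376, adjusted p = 0.893 from limma). These comparisons share the 3 WT controls.

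Groups that did not overlap in WT mice were those of 4 collagens, Col8a2, Col23a1, Col9a2 and Col16a1, all lower with NMBA, against 3.76% of all tested genes in that direction. Col16a1, a FACIT collagen named after its values were seen, measured 14.1, 12.4 and 13.8 FPKM in WT controls and 5.30 to 12.1 FPKM in WT mice under NMBA, a log2 fold change of -0.53 (SE 0.19, unadjusted p = 0.0144, adjusted p = 0.270 from limma). It measured 10.4, 8.02 and 11.2 FPKM in CCR2-/- controls and 8.47 to 13.1 FPKM in CCR2-/- mice under NMBA, and the NMBA responses of the genotypes differed by 0.59 (unadjusted p = 0.0461, adjusted p = 0.893 from limma). No collagen was higher without overlap, against 2.70% of all genes. The CCR2-/- groups had 0 collagens lower without overlap with NMBA, against 2.97% of all genes. In controls 2 collagens, Col16a1 and Col9a2, were lower in every CCR2-/- library than in every WT library, where 4.74% of all tested genes were, and 0 were higher, against 4.47%.

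**Figure D3:**
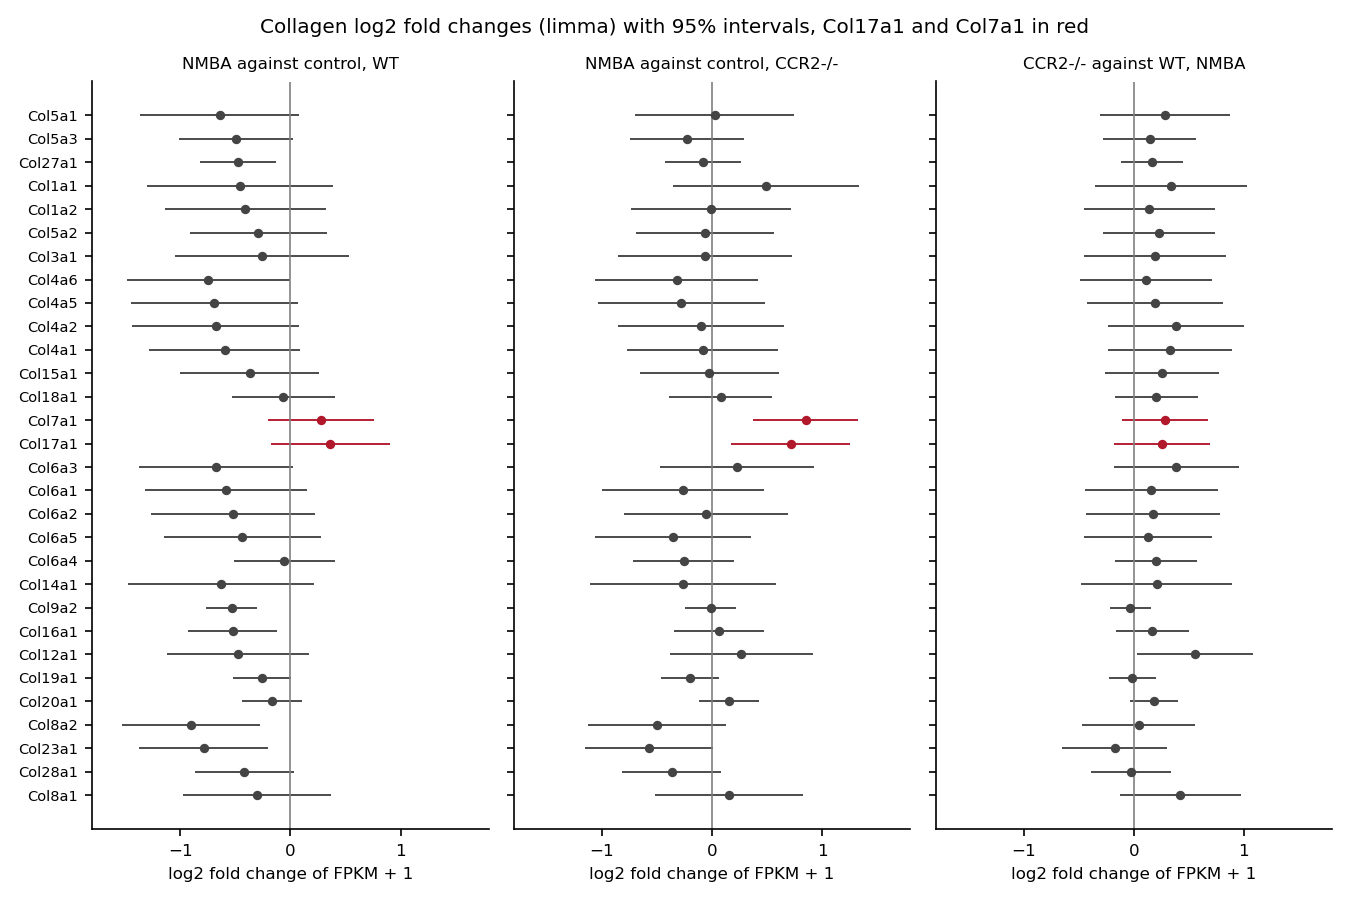
Log2 fold changes of FPKM + 1 from limma with 95% intervals for the 30 collagens tested, ordered by class, for NMBA against control in WT mice, NMBA against control in CCR2-/- mice and CCR2-/- against WT under NMBA. In WT mice 28 of 30 points lie left of 0 and in CCR2-/- mice 20, while Col17a1 and Col7a1 (red) lie right of 0 in each panel.

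The signs of the collagen fold changes leaned one way in WT mice. With NMBA 28 of the 30 tested collagens had a negative log2 fold change, with a median of -0.48, where 51.8% of all tested genes were negative and their median was -0.0088. In CCR2-/- mice 20 of 30 were negative with a median of -0.06, where 50.7% of all genes were negative. The median in WT mice was -0.31 without WT NMBA replicate 6 and -0.63 without WT control replicate 2, and 27 and 28 of 30 collagens were then negative. For CCR2-/- mice the median was 0.11 without NMBA replicate 3 and 0.01 without control replicate 1, so its sign rests on those libraries.

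CCR2-/- and WT mice under NMBA overlapped for every tested collagen, where 0.122% of all genes were higher and 0.203% lower without overlap. Col12a1 (ENSMUSG00000032332, chromosome 9, 79598991 to 79718831), a FACIT collagen of dense connective tissue, had the largest log2 fold change at 0.55 (SE 0.25, unadjusted p = 0.0412, adjusted p = 0.730 from limma). It measured 1.55 to 5.85 FPKM (median 4.71) in WT mice and 4.50 to 7.40 FPKM (median 6.74) in CCR2-/- mice under NMBA. The controls measured 9.54, 2.83 and 6.92 FPKM in WT and 4.42, 4.89 and 5.72 FPKM in CCR2-/- mice. Col8a1, the partner of Col8a2, measured 1.63 to 6.83 FPKM (median 3.53) in WT mice and 2.54 to 8.66 FPKM (median 4.76) in CCR2-/- mice under NMBA. Its log2 fold change was 0.42 (adjusted p = 0.730 from limma), and its controls measured 4.58, 3.78 and 5.34 FPKM in WT and 5.62, 3.69 and 4.10 FPKM in CCR2-/- mice.

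Of the other collagens named above, the log2 fold change of CCR2-/- against WT under NMBA was 0.34 for Col1a1 (adjusted p = 0.788 from limma), 0.33 for Col4a1 (adjusted p = 0.750 from limma), 0.28 for Col7a1 (adjusted p = 0.730 from limma), 0.26 for Col17a1 (adjusted p = 0.751 from limma) and -0.18 for Col23a1 (adjusted p = 0.837 from limma). The median over the 30 was 0.19 with 4 negative, where 45.9% of all genes were negative. It was -0.08 with NMBA replicates 1 to 3 alone and 0.43 with replicates 4 to 6 alone, so the sign differed between these sets. It was 0.05 with 12 negative without WT NMBA replicate 6, 0.11 without CCR2-/- NMBA replicate 6, and 0.32 when replicate 3 of that group was left out. Code letter and single libraries therefore cannot be told apart. In controls the median of CCR2-/- against WT was -0.19 with 26 negative, where 50.4% of all genes were negative. It was -0.39 without WT control replicate 2, -0.10 without WT control replicate 1 and -0.09 without WT control replicate 3. For the difference between the NMBA responses 1 of 30 collagens was negative, with a median of 0.40, where 47.2% of all genes were negative, and the median was 0.22 without WT NMBA replicate 6. It was 0.04 with 8 negative for NMBA replicates 1 to 3 alone and 0.62 for replicates 4 to 6 alone. Between the code letters 23 of 30 collagens were negative in WT mice with a median of -0.10, where 58.4% of all genes were, and 4 of 30 in CCR2-/- mice with a median of 0.36, where 52.7% were. The WT median was 0.24 with 5 negative without WT NMBA replicate 6 and 0.04 with 12 negative without replicate 2, and it was -0.38 without replicate 3, so its sign rests on single libraries. The CCR2-/- median was 0.10 without CCR2-/- NMBA replicate 3, 0.20 without replicate 6 and 0.64 without replicate 2.

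Most tested collagens were low together in 3 NMBA libraries. Among the 28 tested collagens other than Col17a1 and Col7a1, WT NMBA replicate 6 had the lowest value of all 18 libraries for 21, CCR2-/- NMBA replicate 3 for 4 and WT NMBA replicate 3 for 2. These 3 libraries held all 3 lowest places for 19 of the 28 genes. The median log2 difference of the 28 genes from their mean over the 18 libraries was -1.06, -0.73 and -0.61 in these libraries, against -0.21 to 0.57 in the other 15. The summed collagen level ran from 223.9 FPKM in WT NMBA replicate 6 to 808.3 FPKM in CCR2-/- NMBA replicate 6.

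The epithelial pair was high in one of these libraries and low in another. In CCR2-/- NMBA replicate 3, where Col4a1 was at 13.4 FPKM, Col17a1 and Col7a1 reached their highest values of all 18 libraries, 87.7 and 9.28 FPKM. In WT NMBA replicate 6 they were at 33.7 and 2.77 FPKM, the lowest of the 12 NMBA libraries, a log2 difference of -0.56 from their mean over the 18 libraries. The summed FPKM of 7 smooth muscle markers was 3031, 1851 and 4304 in WT NMBA replicate 6, CCR2-/- NMBA replicate 3 and WT NMBA replicate 3, against 5787 to 10050 in the controls and 3775 to 7207 in the other 9 NMBA libraries. The summed FPKM of 8 fibroblast markers was 207.1, 146.1 and 257.5 in the same libraries, the lowest of the 18, against 372.2 to 589.1 in the controls and 273.2 to 538.7 in the other 9 NMBA libraries. All 7 smooth muscle markers and 7 of the 8 fibroblast markers passed the filter. The part of these markers in the collagen values was not tested, and in bulk tissue fewer stromal cells and less collagen transcript per cell cannot be told apart.

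**Figure D4:**
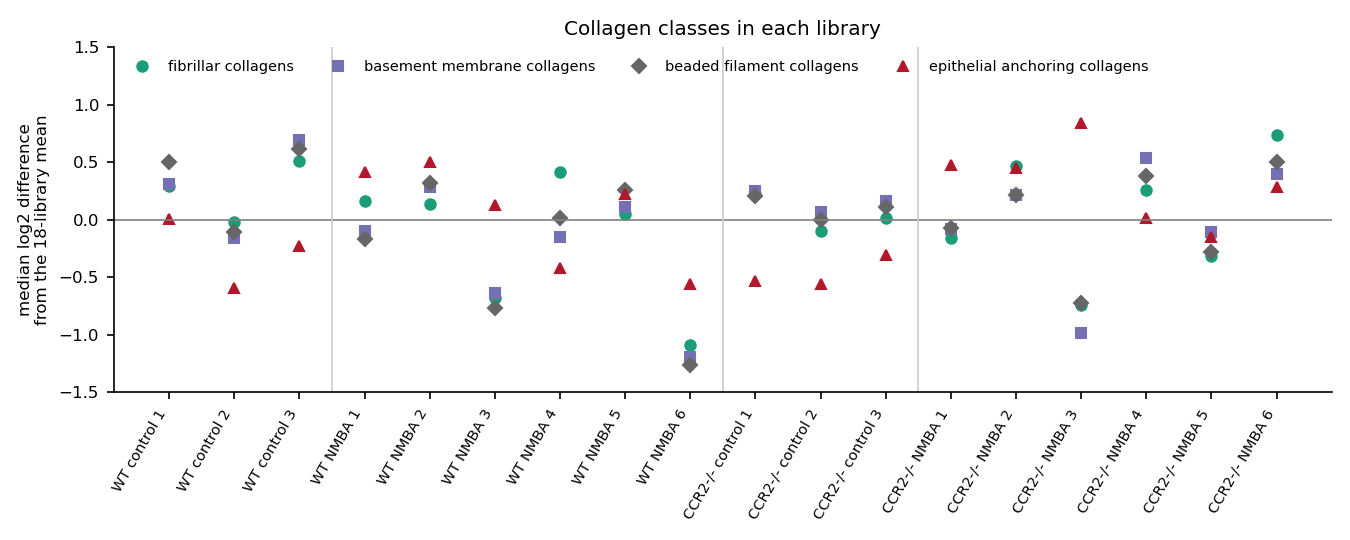
Median log2 difference of 4 collagen classes from their mean over the 18 libraries, with the libraries on the horizontal axis in order of group and replicate. Fibrillar, basement membrane and beaded filament collagens are lowest in WT NMBA replicates 3 and 6 and CCR2-/- NMBA replicate 3. They do not lie close together in every library, with 0.417, -0.147 and 0.017 in WT NMBA replicate 4. The epithelial anchoring collagens lie at -0.56 in WT NMBA replicate 6 and at 0.84 in CCR2-/- NMBA replicate 3.

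Ratios between the paired chains examined ran over a narrower range than the levels of those chains. Col4a1 and Col4a2 share a start region on chromosome 8, where their annotated starts overlap by 22 bases and point in opposite directions, and the counting strand is not given in the sources used here. Their ratio was 0.812 to 1.13 over the 18 libraries, a 1.39-fold range, while Col4a1 itself ran from 12.7 to 47.1 FPKM. Col4a5 and Col4a6, whose starts lie 1309 bases apart on chromosome X, had a ratio of 1.23 to 1.63. Col6a1 to Col6a2 gave 2.09 to 2.93, and Col1a1 to Col1a2 gave 0.959 to 1.84, a 1.92-fold range. The epithelial pair Col17a1 to Col7a1, chains of different collagen types, gave 9.45 to 15.1, a 1.6-fold range. By contrast the ratio of Col17a1 to Col1a1, an epithelial to a stromal collagen, ran from 0.433 to 2.20.

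The ratio of Col1a1 to Col1a2 differed between the CCR2-/- groups. It was 0.959, 1.04 and 1.00 in CCR2-/- controls and 1.1 to 1.84 (median 1.45) in CCR2-/- mice under NMBA, without overlap. In WT mice it was 1.46, 1.1 and 1.29 in controls and 1.08 to 1.37 (median 1.25) under NMBA, with overlap. The Col17a1 to Col7a1 ratio was 12.6 to 15.1 in CCR2-/- controls and 9.45 to 12.5 under NMBA, also without overlap, and 10.5 to 11.9 against 10.3 to 13.5 in WT mice. These ratios were chosen after the levels had been seen and are given without a test.

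**Figure D5:**
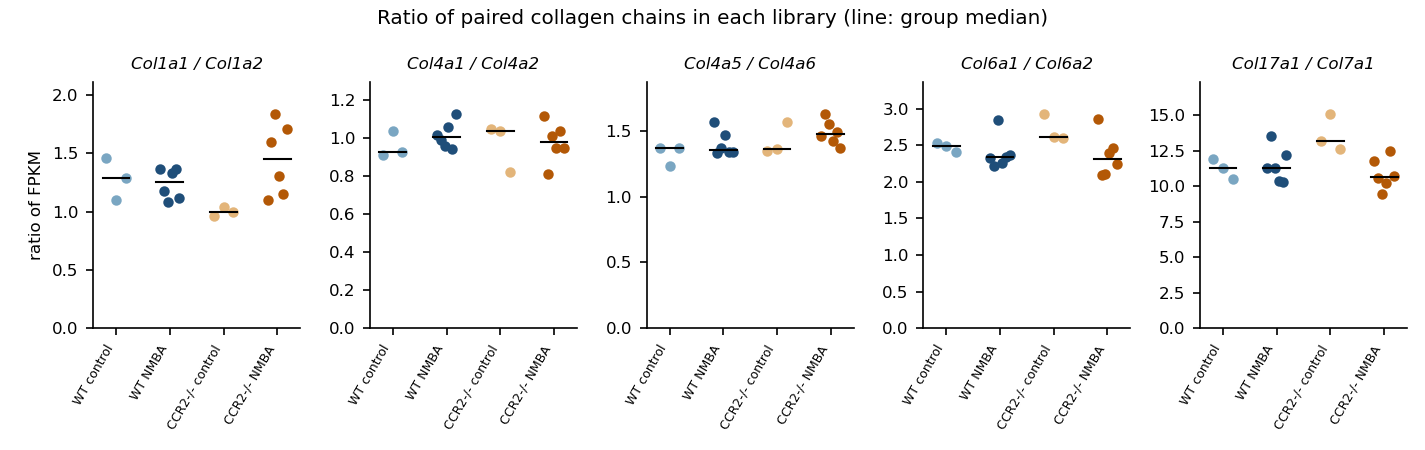
Ratio of FPKM between chains in each of the 18 libraries (points) with the group median (line), each vertical axis starting at 0. Col4a1 to Col4a2 stays between 0.812 and 1.13, and Col1a1 to Col1a2 lies at 0.959 to 1.04 in CCR2-/- controls and 1.1 to 1.84 in CCR2-/- mice under NMBA.

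The genes that modify, process and bind collagen were examined as lists, and no member was called in any comparison (limma, adjusted p of 0.05). Of 18 tested genes of chain modification and folding, 2 were lower (7.69% of all genes) and 0 higher (5.45%) with NMBA in WT mice at an unadjusted p under 0.05, and the median log2 fold change was -0.22 there and -0.20 in CCR2-/- mice. The most abundant were P4hb, the disulfide isomerase subunit of prolyl 4-hydroxylase, with group medians of 259 and 275 FPKM in WT controls and WT mice under NMBA, and Ppib, a prolyl isomerase of the endoplasmic reticulum, with 209 and 222 FPKM. Their log2 fold changes were 0.13 for P4hb (adjusted p = 0.615 from limma) and 0.17 for Ppib (adjusted p = 0.738 from limma).

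Of 11 tested genes of procollagen cleavage and cross-linking, 3 were lower (7.69% of all genes) and 0 higher (5.45%) in WT mice at an unadjusted p under 0.05, with a median of -0.40, and the median in CCR2-/- mice was -0.12. Bmp1, the procollagen C-proteinase, had group medians of 9.57 FPKM in WT controls and 7.66 FPKM under NMBA with a log2 fold change of -0.28 (adjusted p = 0.629 from limma). Loxl1, a lysyl oxidase-like cross-linking enzyme, had 9.90 and 6.84 FPKM with a log2 fold change of -0.57 (adjusted p = 0.481 from limma). Of the 7 tested fibril-associated proteoglycans, 7 were negative in WT mice (51.8% of all genes) with 3 of them at an unadjusted p under 0.05 (7.69%), with a median of -0.58 in WT and -0.37 in CCR2-/- mice. Dcn (decorin) had group medians of 255 and 199 FPKM in WT controls and WT mice under NMBA, and a log2 fold change of -0.35 (adjusted p = 0.654 from limma). Lum (lumican) had 52.0 and 48.6 FPKM and a log2 fold change of -0.32 (adjusted p = 0.760 from limma). Dcn and Lum are also among the 8 fibroblast markers above.

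The 14 tested basement membrane partners had a median of -0.30 in WT mice, with an unadjusted p under 0.05 for 1 higher gene (5.45% of all genes) and 3 lower genes (7.69%), and of -0.01 in CCR2-/- mice. Lamb2, a laminin chain, measured 37.0 to 47.7 FPKM in WT controls and 30.5 to 39.7 FPKM in WT mice under NMBA, a log2 fold change of -0.23 (adjusted p = 0.465 from limma). Nid1, which links laminin to type IV collagen, measured 15.2 to 32.1 and 5.38 to 21.9 FPKM, a log2 fold change of -0.81 (unadjusted p = 0.0427, adjusted p = 0.361 from limma). The 7 tested collagen receptors had a median of -0.28 in WT mice, with 6 negative (51.8% of all genes). An unadjusted p under 0.05 was reached there by 0 higher genes (5.45% of all genes) and 1 lower gene (7.69%). In CCR2-/- mice the median was 0.12, with 1 higher (5.20%) and 0 lower (6.18%). Itgb1, the beta chain of the collagen-binding integrins, had a log2 fold change with NMBA of -0.44 in CCR2-/- mice (adjusted p = 0.490 from limma). Ddr1, a collagen-binding receptor kinase of epithelia, had 0.42 (unadjusted p = 0.00434, adjusted p = 0.296 from limma), with 19.0 to 24.6 FPKM in CCR2-/- controls and 23.9 to 39.5 FPKM under NMBA, with overlap. In WT mice Ddr1 measured 21.8 to 25.1 FPKM in controls and 25.4 to 30.4 FPKM under NMBA. These WT libraries did not overlap, against 2.70% of all genes in that direction. Itgb1 in WT mice measured 86.6 to 123 and 53.9 to 103 FPKM, with overlap.

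The 4 tested hemidesmosome partners of Col17a1 had a median log2 fold change with NMBA of -0.08 in WT and 0.20 in CCR2-/- mice. At an unadjusted p under 0.05, 0 were higher (5.45% of all genes) and 0 lower (7.69%) in WT mice. In CCR2-/- mice 0 were higher (5.20%) and 1 was lower (6.18%). That gene was Cd151, a tetraspanin, with a log2 fold change of -0.38 (unadjusted p = 0.0141, adjusted p = 0.365 from limma), opposite in sign to Col17a1. Itgb4, the integrin chain that binds type XVII collagen, had 0.31 there (adjusted p = 0.510 from limma), with 12.8 to 14.2 FPKM in CCR2-/- controls and 14.3 to 19.6 FPKM under NMBA, and 0.01 in WT mice (adjusted p = 0.992 from limma).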

How the data were processed

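FPKM values were deposited by the authors as 1 table of 57234 genes and transcribed regions, with 1 column per library, and the unit was read from the table's name. The submitters' notes name mm10, GRCm38 and DESeq2, while aligner, counter and annotation release are not given in the sources used here. As FPKM are not counts, limma (3.58.1, with a mean-variance trend, in R 4.3.3) was fitted to log2(FPKM + 1). It covered the 14765 of 28934 reference entries that reached 0.5 FPKM in 3 libraries, with the 4 groups in 1 factor. The pseudocount of 1 draws fold changes of genes near or under 1 FPKM toward 0. A fit of 6 groups compared the code letters. P-values were two-sided and adjusted by Benjamini-Hochberg within a comparison.

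The collagens and the other lists were chosen with earlier results of these data known. Collagens named individually were Col1a1, Col1a2, Col3a1, Col4a1, Col4a2, Col17a1, Col7a1, any called, and the 3 highest and 3 lowest log2 fold changes per main comparison. Of other lists the 2 genes with the highest mean FPKM were named. Col13a1 was not analysed, because no entry with a reference gene carried that symbol. Coordinates are those of the table and equal GENCODE M21 for 41 of 43 genes. Alternatives changed the pseudocount, filter, scaling, weights, threshold, replicate block and libraries. Python 3.11.15 with matplotlib 3.10.9 drew the figures.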

Additional observations from a re-analysis of the deposited data

How the results depend on the processing

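The count of called collagens was 0 in each comparison as reported and under every alternative that gave a value, except for NMBA against control. In CCR2-/- mice it was 2 with NMBA replicates 1 to 3 alone and 2 with the replicate number as a block, both times Col17a1 and Col7a1, and 1 with sample weights (Col7a1, log2 fold change 0.827, adjusted p = 0.0327 from limma), a setting that called 138 genes in all (81 higher) against 3. In WT mice it was 1, Col9a2, at an adjusted p threshold of 0.1, with replicates 1 to 3 alone (-0.622, adjusted p = 0.0129 from limma), with the replicate block (-0.664, adjusted p = 0.00438 from limma) and with sample weights (-0.608, adjusted p = 0.0249 from limma). Of all genes, 0.0339% were called lower in WT mice at the threshold of 0.1 and 0.129% with replicates 1 to 3 alone. The replicate block called 70 genes lower there and sample weights called 3. With replicates 1 to 3 alone 158 genes were called in all, against 13 in the main fit. With the replicate block the log2 fold change in CCR2-/- mice was 1.03 for Col17a1 (adjusted p = 0.0336 from limma) and 1.1 for Col7a1 (adjusted p = 0.0219 from limma). Same-numbered libraries were not shown to be paired, since 8 of 21 correlations between them were above 0.1. The controls carry replicate numbers 1 to 3 only, so under this block NMBA against control rests mainly on those NMBA replicates. The calls under the block are therefore not independent of those with replicates 1 to 3 alone. Under this block the calls over all genes were 278 in WT and 294 in CCR2-/- mice against 13 and 3. Leaving out 1 library at a time left 0 collagens called in every comparison and gave a log2 fold change with NMBA in CCR2-/- mice of 0.62 to 0.795 for Col17a1 and 0.734 to 0.955 for Col7a1. In WT mice it gave 0.183 to 0.535 for Col17a1, 0.131 to 0.394 for Col7a1 and -0.70 to -0.234 for Col1a1.

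The sign changed for few values, none of them called. With NMBA in CCR2-/- mice Col3a1 turned to 0.131 with replicates 4 to 6 alone and 0.193 with sample weights, and leaving out 1 library at a time gave -0.239 to 0.133. There Col4a1 turned to 0.335 and 0.0483 under the same settings, with -0.20 to 0.13 when libraries were left out. For CCR2-/- against WT under NMBA, Col4a1 turned to -0.188 with replicates 1 to 3 alone and Col23a1 to 0.115 with replicates 4 to 6 alone. The cause was not tested. The count of genes called in WT mice over all genes was 26 on log2(FPKM + 0.1) and 31 with sample weights. Median scaling moved a library by at most 0.13 on the log2 scale (WT NMBA replicate 6) and kept 28 of 30 collagens negative in WT mice. Without the 2 libraries rich in pepsinogen C, an alternative chosen after the data were seen, the median collagen log2 fold change with NMBA was -0.39 in WT and -0.12 in CCR2-/- mice. WT NMBA replicate 6, whose glandular stomach markers summed to 46350 FPKM, stayed in that fit. Leaving out that library alone gave a WT median of -0.31. Sample weights for the comparison of code letters did not converge and were not run. With 3 controls per genotype and no read counts, counting error cannot be separated from the spread between mice.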
